A study of Mus musculus with 15 samples.

Results

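Wild type mouse embryonic stem (ES) cells were compared with the embryoid bodies (EBs) grown from them for 6 days, over the genes listed at 1 FPKM or more in at least 2 of the 4 libraries. FPKM, a fragment count scaled to transcript length and library size, is the unit of all levels. This rule was met by 11968 of 18762 genes in the table. Of these, 10472 were at 1 FPKM or more in all 4 libraries, 882 only in both EB libraries, 253 only in both ES libraries, 303 in 3 libraries and 58 in 1 of each. Another 406 genes reached 1 FPKM in a single library and 6388 in none. Just inside the limit lay 100 genes whose second highest value was 1.0 to 1.05 FPKM, such as Pak6 at 1.02 and 1.0 in ES cells and 0.53 and 0.57 in EBs. Just outside lay 88 genes at 0.95 to 0.99, such as Zfp287 at 0.93 and 0.99 in ES cells and 0.9 and 1.35 in EBs.

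ES cells are derived from the inner cell mass of the blastocyst and can form every tissue of the embryo. In mouse cultures they are held in the naive state by leukaemia inhibitory factor (LIF), whose receptor and its partner gp130 activate JAK kinases and the transcription factor STAT3. When LIF is withdrawn and attachment is prevented, the cells aggregate into EBs, in which an outer endoderm-like epithelium and derivatives of the germ layers arise in an order that loosely follows the early embryo.

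All lines were of strain C57BL/6N per the labels, which do not say what part of Mettl5 the knockout lines lack. The ES group held 2 wild type libraries collected at day 0, from the lines named Ctr (replicate 1) and WT (replicate 2). These replicates are separate lines, and they differed in Y-linked genes: in ES cells Eif2s3y was at 11.52 FPKM in replicate 1 and 0.21 in replicate 2, and Ddx3y at 1.52 and 0.01. Both lines were also sampled as EBs at day 6, in dishes coated with poly(2-hydroxyethyl methacrylate) and medium without LIF, and after 6 days in N2B27 medium, a serum-free medium used for neural differentiation. From 3 Mettl5 knockout lines, ES and EB libraries of the same days were set beside these. Mettl5, the targeted gene, was at 17.7 to 20.85 FPKM in the 4 wild type ES and EB libraries and at 5.22 to 10.65 FPKM in the 6 knockout libraries. Each group held a single library per line, so each p-value rests on a spread between lines. No line was sampled in repeat cultures of the same kind, so the spread within a line is not known.

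The 4 libraries summed to 490020 to 530049 FPKM. Genes at 1 FPKM or more numbered 11078 and 10953 in ES cells and 11807 and 11751 in EBs. Across genes, which are not independent replicates, the libraries of a group correlated with r = 0.9958 (ES) and 0.9909 (EB). No source used here gives the fragments behind each value, so no counting interval was computed. The markers of the labelled cells were present: Pou5f1, the core pluripotency factor Oct4, stood at 926.39 and 1054.27 FPKM in ES cells, and Zfp42 (Rex1), of the naive state, at 505.3 and 489.66. Genes on the feeder and fibroblast list differed among themselves: Dcn, Lum and Postn were at 0 FPKM in both ES libraries and at 0.1 FPKM or less in both EB libraries, while Thy1 was at 9.37 and 8.61 FPKM and Mmp2 at 4.02 and 4.35 FPKM in ES cells. The list summed to 21.32 and 20.88 FPKM in ES cells and 66.62 and 71.66 FPKM in EBs. On the macrophage and blood list Ptprc and Lyz2 were at 0 in all 4 libraries, while the list summed to 44.32 and 44.81 FPKM in ES cells and 26.62 and 28.73 FPKM in EBs, with Laptm5 at 27.5 and 30.06 FPKM in ES cells.

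In EBs 4295 genes (35.9%) were higher and 2994 (25%) lower than in ES cells, at an adjusted p under 0.05 by limma on log2(FPKM + 1). At least 2-fold on that scale, 1431 genes (12%) were higher and 603 (5.04%) lower. Over all 11968 genes the median log2 fold change was 0.089, and the median standard error (SE) of a fold change was 0.126; every value given below as log2 ± is the fold change of EBs over ES cells with its SE. Genes that met the rule through EBs alone make up part of the increases: 859 of these 882 were higher, 578 of them at least 2-fold. Among the 10472 genes at 1 FPKM or more in all 4 libraries, 31.5% were higher and 25.8% lower, with a median of 0.042. Most gene groups below are given in both ways, and their counts are to be read beside these shares. Counts near the shares over all genes set a group apart in no way. As bulk RNA was measured, fewer cells of a type and less RNA per cell cannot be told apart. With median-ratio scaling the median moved by -0.120, and 48.0% of calls were then increases, against 58.9% as deposited and 52.9% with TPM scaling.

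The largest changes were uneven between directions. In units of log2(FPKM + 1), 29 genes rose by at least 4 and 3 fell by at least 4. Genes near 0 FPKM in one group can miss this limit despite a large ratio in FPKM. Hand1 did so, at 0.27 and 0.17 FPKM in ES cells and 15.93 and 16.46 FPKM in EBs (log2 3.82). Genes that rose at least 2-fold made up 1.62% and 1.54% of the summed FPKM of the ES libraries and 5.60% and 5.30% of the EB libraries, while genes that fell at least 2-fold went from 5.99% and 5.93% to 1.88% and 1.79%. The 3 that fell furthest in these units were Inhbb, a subunit of activin B, Mras, a RAS-related GTPase, and Klf4. Inhbb fell from 63.56 and 66.02 FPKM to 0.08 and 0.14 FPKM (log2 -5.89 ± 0.10; adjusted p = 2.45e-14). Mras fell from 43.32 and 46.33 to 0.85 and 0.98 FPKM (log2 -4.58 ± 0.11). The highest gene in every library was Eef1a1, a translation elongation factor, at 6274.08 and 6544.85 FPKM in ES cells and 7926.15 and 7311.19 FPKM in EBs.

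The LIF receptor and STAT3 pathway was split between its parts. Of the 22 genes, 8 rose and 9 fell in EBs (median log2 -0.19), and of the 19 at FPKM 1 or more in all 4 libraries 6 rose and 9 fell (median -0.23). The receptor subunit Lifr fell from 10.86 and 8.83 FPKM to 4.26 and 3.69 FPKM (log2 -1.12 ± 0.15; adjusted p = 2.02e-05). Il6st, which encodes its partner gp130, was 14.86 and 12.82 FPKM in ES cells and 12.71 and 11.07 FPKM in EBs (log2 -0.20 ± 0.10; adjusted p = 0.0983). Of the kinases, Tyk2 fell from 10.72 and 10.44 to 5.42 and 4.22 FPKM (log2 -1.0 ± 0.12). Jak2 rose from 1.06 and 1.14 to 3.54 and 3.56 FPKM (log2 1.12 ± 0.13). Jak1 rose from 10.72 and 9.37 to 14.26 and 13.56 FPKM (log2 0.44 ± 0.11). Stat3 itself fell from 33.65 and 35.23 FPKM to 12.22 and 8.9 FPKM (log2 -1.63 ± 0.19; adjusted p = 5.16e-06). The feedback inhibitor Socs3, a STAT3 target, fell from 60.3 and 65.1 FPKM to 12.02 and 8.47 FPKM (log2 -2.52 ± 0.25; adjusted p = 1.28e-06). Bcl3, a nuclear NF-kappaB cofactor, fell from 57.31 and 67.33 FPKM to 5.89 and 4.74 FPKM (log2 -3.33 ± 0.16; adjusted p = 1.59e-09). In each of these called genes both EB libraries lay on the same side of both ES libraries, as was so for 9536 (79.7%) of all 11968 genes. Other genes of the list moved less or the other way: the kinase genes Pim1 and Pim3 fell (log2 -0.64 and -1.08), Junb rose (log2 0.67 ± 0.18), and the SOCS family genes Socs2 and Cish did not pass the test, with log2 0.20 ± 0.16 and -0.23 ± 0.17. The transcript of LIF, Lif, was 0.66 and 0.75 FPKM in ES cells and 1.4 and 1.62 FPKM in EBs. The letters TTCCNGGAA, a STAT motif, were found on either strand in 1 of 18 promoters of the list, that of Cish, and in 1.15% of all 27025 promoters searched from 250 bases before to 50 after the start.

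**Figure D1:**
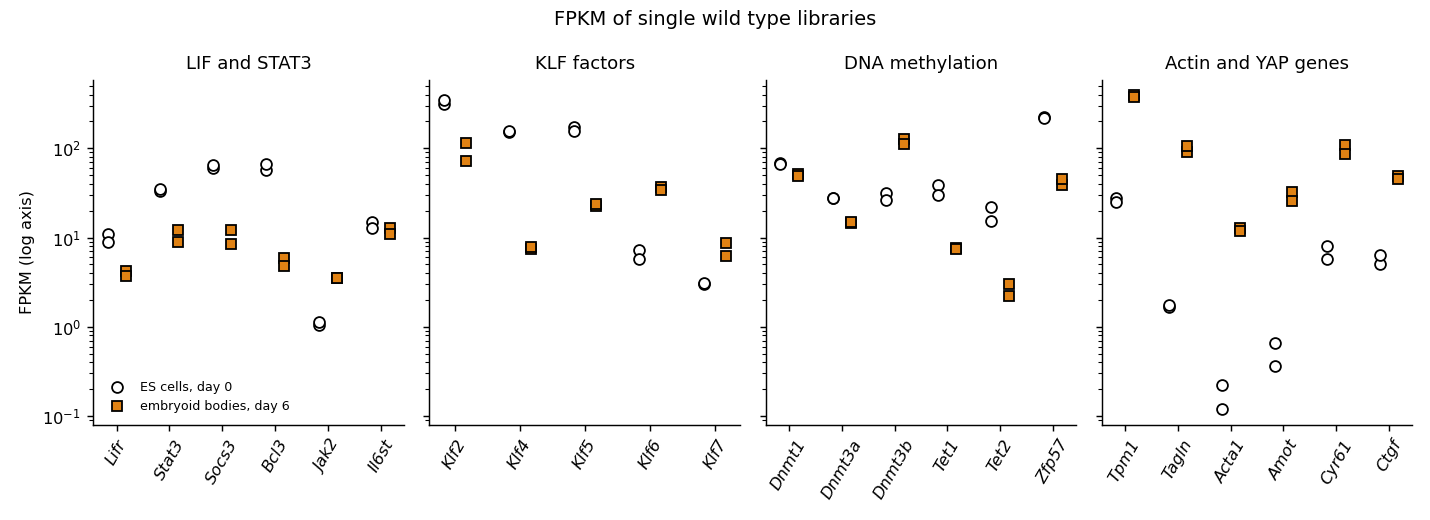
FPKM (log axis) of single wild type libraries for genes of 4 groups, with open circles for both ES libraries and orange squares for both EB libraries. The LIF target Socs3 falls from about 60 to about 10 FPKM while Jak2 rises, KLF factors split between Klf4 and Klf6, Dnmt3b rises while Tet2 falls, and actin and YAP genes rise.

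Families of transcription factors moved in different directions. The KLF family, zinc finger factors that bind GC-rich boxes, had 2 of 14 genes higher and 9 lower (median log2 -0.59), with all 14 at 1 FPKM or more throughout. Besides Klf4, Klf5 fell from 174.29 and 155.27 FPKM to 22.35 and 23.84 FPKM (log2 -2.78 ± 0.20; adjusted p = 4.53e-08). Klf2 fell from 314.24 and 347 to 114.69 and 72.38 FPKM (log2 -1.85 ± 0.20). Klf2, Klf4 and Klf5 are factors of the naive state. Klf6, an immediate early family member, rose from 7.23 and 5.78 FPKM to 36.41 and 34.2 FPKM (log2 2.28 ± 0.19; adjusted p = 1.71e-07). Klf7 rose from 2.99 and 3.11 to 8.71 and 6.26 FPKM (log2 1.05 ± 0.16). Klf3, Klf8, Klf9, Klf10, Klf12 and Klf16 fell by smaller steps, with log2 -1.13 at the furthest, and Klf11, Klf13 and Klf15 did not pass the test. The SOX family, HMG box factors, went the other way. Of the 13 genes, 8 rose and 1 fell in EBs (median log2 1.19), and of the 11 at FPKM 1 or more in all 4 libraries 6 rose and 1 fell (median 0.47). Sox11, of neural progenitors, rose from 1.28 and 1.14 FPKM to 19.63 and 23.8 FPKM (log2 3.36 ± 0.13; adjusted p = 1.6e-10). Sox4 rose from 13.54 and 13.23 to 32.77 and 34.01 FPKM (log2 1.26 ± 0.11). Sox13 and Sox3 rose by log2 1.19 ± 0.17 and 2.12 ± 0.17, and Sox2, the core pluripotency member, was the single member that fell, by 0.94 on the log2 scale.

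The POU and ZIC factors moved in both directions. Of the 11 genes, 5 rose and 4 fell in EBs (median log2 -0.14), and of the 7 at FPKM 1 or more in all 4 libraries 3 rose and 2 fell (median -0.14). Pou5f1, by far their most abundant gene, fell from 926.39 and 1054.27 to 344.99 and 351.35 FPKM (log2 -1.50 ± 0.25). Zic2, a zinc finger factor of the epiblast and neural plate, rose from 8.12 and 6.82 FPKM to 97.27 and 95.07 FPKM (log2 3.52 ± 0.13; adjusted p = 1.48e-10). Pou3f1 (Oct6) rose from 5.4 and 5.88 to 40.36 and 41.77 FPKM (log2 2.66 ± 0.13). Pou2f1 (Oct1), the ubiquitous family member, was 9.76 and 7.83 FPKM in ES cells and 7.05 and 7.31 FPKM in EBs (log2 -0.25 ± 0.13; adjusted p = 0.111). The T-box family had 4 of 6 genes higher and 1 lower (median log2 1.16), or 1 and 1 of the 3 at FPKM 1 or more in all 4 libraries. Eomes, a mesendoderm regulator, rose from 2.3 and 2.49 FPKM to 40.41 and 28.6 FPKM (log2 3.37 ± 0.34; adjusted p = 1.48e-06). Tbx3, which supports self-renewal of ES cells, fell from 65.67 and 63.42 FPKM to 8.79 and 8.78 FPKM (log2 -2.74 ± 0.17; adjusted p = 9.62e-09). The forkhead family had 9 of 21 genes higher and 5 lower (median log2 0.19), or 3 and 4 of the 14 at FPKM 1 or more in all 4 libraries (median 0.00). Its counts lie near the shares over all 11968 genes, 35.9% higher and 25% lower. Foxh1, the partner of SMAD2 in Nodal signalling, rose from 19.86 and 17.62 FPKM to 76.22 and 55.03 FPKM (log2 1.74 ± 0.23; adjusted p = 2.19e-05). Foxa2, of endoderm and notochord, rose from 0.19 and 0.33 to 9.24 and 7.62 FPKM (log2 2.90 ± 0.41). Foxn4 fell from 5.29 and 5.52 to 0.47 and 0.2 FPKM (log2 -2.27 ± 0.14). The bHLH inhibitors had 7 of 10 genes higher and 0 lower (median log2 0.82), or 5 and 0 of the 8 at FPKM 1 or more in all 4 libraries (median 0.49). Id2 and Id3, dominant negative partners of bHLH factors, rose (log2 1.31 ± 0.18 and 1.49 ± 0.25), while Id1 was 66.19 and 81.5 FPKM in ES cells and 73.84 and 78.74 FPKM in EBs (log2 0.05 ± 0.18; adjusted p = 0.814).

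Genes that read, write and erase DNA methylation changed in opposite directions. Of the 24 genes, 7 rose and 12 fell in EBs (median log2 -0.34), all of them at FPKM 1 or more in all 4 libraries. Dnmt3b, a de novo methyltransferase, rose from 31.97 and 26.4 FPKM to 127.36 and 111.48 FPKM (log2 2.00 ± 0.20; adjusted p = 1.2e-06). Its relative Dnmt3a fell from 27.62 and 27.9 FPKM to 14.44 and 14.78 FPKM (log2 -0.88 ± 0.10; adjusted p = 3.54e-06). Dnmt3l, a cofactor of both enzymes, fell (log2 -0.61 ± 0.20), and Dnmt1 and Uhrf1, of maintenance methylation, fell by 0.43 and 0.63 on the log2 scale. The 5-methylcytosine oxidases were likewise split. Tet1 fell from 38.8 and 29.72 FPKM to 7.55 and 7.36 FPKM (log2 -2.05 ± 0.13; adjusted p = 1.29e-08). Tet2 fell from 22.07 and 15.44 FPKM to 3.03 and 2.22 FPKM (log2 -2.43 ± 0.20; adjusted p = 1.98e-07). Tet3 rose from 1.71 and 1.63 to 2.42 and 3.16 FPKM (log2 0.50 ± 0.13). Zfp57 and Trim28, which protect imprints from demethylation, fell. Zfp57 fell from 221.57 and 219.13 to 38.65 and 45.18 FPKM (log2 -2.37 ± 0.13). Trim28 fell from 744.52 and 804.39 to 351.19 and 321.15 FPKM (log2 -1.20 ± 0.09). Both EB values lay outside the range of both ES values in all of the genes named in this group, as in 79.7% of all 11968 genes.

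The Polycomb complexes, which deposit repressive marks on histones H3 and H2A, had 11 of 34 genes higher and 10 lower (median log2 0.01), or 11 and 10 of the 33 at FPKM 1 or more in all 4 libraries (median 0.01), a median inside the shift that scaling makes. These counts lie near the shares over all 11968 genes, 35.9% higher and 25% lower. The genes of both catalytic subunits named here did not pass the test. Ezh2 was 59.02 and 52.25 FPKM in ES cells and 51.72 and 49.25 FPKM in EBs (log2 -0.14 ± 0.10; adjusted p = 0.268). Rnf2 was 57.39 and 53.08 FPKM in ES cells and 49.78 and 61.62 FPKM in EBs (log2 0.01 ± 0.11; adjusted p = 0.97). E130012A19Rik, named Epop in RefSeq, an ES cell subunit of PRC2, fell from 416.05 and 431.73 FPKM to 64.45 and 61.32 FPKM (log2 -2.73 ± 0.18; adjusted p = 1.93e-08). Jarid2, another accessory factor, fell from 107.51 and 95.83 to 42.97 and 40.4 FPKM (log2 -1.26 ± 0.09). The core subunit gene Eed fell from 93.76 and 90.64 to 41.36 and 48.23 FPKM (log2 -1.03 ± 0.10). Subunits of PRC1 moved both ways. Phc2 rose from 16.19 and 17.42 to 49.24 and 50.54 FPKM (log2 1.52 ± 0.09). Yaf2 rose from 5.18 and 4.99 to 18.1 and 21.38 FPKM (log2 1.76 ± 0.11), while Phc1 and Rybp fell by 0.62 and 0.82 on the log2 scale. The BAF and NuRD chromatin remodellers had 9 of 32 genes higher and 13 lower (median log2 -0.17), or 8 and 13 of the 31 at FPKM 1 or more in all 4 libraries (median -0.18). The ATPase Smarca2 rose from 0.28 and 0.11 FPKM to 4.61 and 5.06 FPKM (log2 2.29 ± 0.16; adjusted p = 2.93e-08). Its counterpart Smarca4 fell from 61.19 and 59.86 to 55.3 and 48.69 FPKM (log2 -0.22 ± 0.08). Smarcd3 fell from 16.72 and 18.64 FPKM to 2.3 and 1.84 FPKM (log2 -2.61 ± 0.13; adjusted p = 1.36e-09). Dpf1 fell from 14.37 and 14.19 to 3.28 and 3.29 FPKM (log2 -1.83 ± 0.09). Smarcd3 and Dpf1 are BAF subunits known from muscle and neurons.

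Most tight junction genes rose, while gap junction and desmosome genes moved in both directions. Tight junction and claudin genes had 17 of 20 genes higher and 2 lower (median log2 1.03), or 14 and 2 of the 17 at FPKM 1 or more in all 4 libraries (median 1.01), against 31.5% and 25.8% of all genes at that level. Cldn6 rose from 6.09 and 5.19 FPKM to 98.53 and 68.27 FPKM (log2 3.65 ± 0.23; adjusted p = 1.21e-08). Cldn7 rose from 1.71 and 1.73 to 36.05 and 23.31 FPKM (log2 3.46 ± 0.21). Cldn3 rose from 1.23 and 0.93 to 25.72 and 15.04 FPKM (log2 3.32 ± 0.30). Claudins form the seal of tight junctions. Against the direction of most of the list, Jam2, a junctional adhesion molecule, fell from 65.2 and 58.59 FPKM to 3.13 and 4.21 FPKM (log2 -3.76 ± 0.24; adjusted p = 1.84e-08). Of 7 gap junction genes 1 rose and 4 fell, or 1 and 2 of the 4 at FPKM 1 or more in all 4 libraries. Gja1 (connexin 43) rose from 7.97 and 5.73 FPKM to 100.61 and 100.31 FPKM (log2 3.71 ± 0.11; adjusted p = 1.54e-11), and Gjb5 and Gjb1 fell by 1.21 and 0.49 on the log2 scale. Keratin and desmosome genes had 6 of 14 genes higher and 5 lower (median log2 0.14), or 3 and 2 of the 8 at FPKM 1 or more in all 4 libraries (median 0.14). Krt8, Krt18 and Krt19, the keratins of simple epithelia, rose, with Krt8 going 8.08 and 5.71 to 155.9 and 142.02 FPKM, and Krt17 fell from 5.57 and 4.76 to 0.53 and 0.94 FPKM (log2 -1.84 ± 0.18). Dsp (desmoplakin) rose from 2.07 and 1.55 to 18.77 and 16.88 FPKM (log2 2.75 ± 0.21). Jup (plakoglobin) fell from 41.28 and 45.69 to 30.74 and 24.63 FPKM (log2 -0.64 ± 0.16).

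The list of cadherins and mesenchymal transition held increases of both epithelial and mesenchymal genes. Of the 23 genes, 15 rose and 3 fell in EBs (median log2 0.82). Of the 14 at FPKM 1 or more in all 4 libraries 6 rose and 3 fell (median 0.09), against 31.5% and 25.8% of all genes at that level. This second median lies inside the shift that scaling makes. The 3 that fell became 1 without ES replicate 2. Cdh2 (N-cadherin) rose from 0.43 and 0.36 FPKM to 20.68 and 24.78 FPKM (log2 4.08 ± 0.19; adjusted p = 8e-10), and Cdh1 (E-cadherin) was also above its ES level, at 70.19 and 60.34 FPKM in ES cells and 133.52 and 99.9 FPKM in EBs (log2 0.82 ± 0.19; adjusted p = 0.00186). Esrp1, an epithelial splicing regulator, rose from 1.21 and 0.94 to 21.82 and 14.83 FPKM (log2 3.20 ± 0.19). Zeb2, a repressor of epithelial genes, rose from 0.13 and 0.14 to 2.99 and 4.68 FPKM (log2 2.07 ± 0.14). Cdh3 (P-cadherin) fell from 12.79 and 15.34 to 8.11 and 5.86 FPKM (log2 -0.93 ± 0.29). The bHLH factor gene Tcf15 fell from 150.16 and 172.53 to 10.73 and 11.38 FPKM (log2 -3.75 ± 0.17). Basement membrane and matrix genes had 12 of 23 genes higher and 4 lower (median log2 0.75), or 8 and 4 of the 18 at FPKM 1 or more in all 4 libraries (median 0.47). The type IV collagen chains Col4a1 and Col4a2, neighbours on chromosome 8, rose by log2 1.82 ± 0.35 and 1.96 ± 0.35, and the laminin chain Lamb1 rose from 9.18 and 8.23 to 31.87 and 28.17 FPKM (log2 1.68 ± 0.20). Nid1 (nidogen), which links laminin to collagen IV, fell from 27.23 and 26.5 FPKM to 7.76 and 7.95 FPKM (log2 -1.65 ± 0.20; adjusted p = 9.94e-06). The laminin chain Lamc1 fell from 82.76 and 79.51 to 49.46 and 48.63 FPKM (log2 -0.71 ± 0.18). Fn1 (fibronectin), the highest gene of the group in ES cells, was 116.45 and 128.13 FPKM in ES cells and 147 and 119.59 FPKM in EBs (log2 0.12 ± 0.23; adjusted p = 0.679).

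Integrins had 5 of 11 genes higher and 6 lower (median log2 -0.61), or 4 and 4 of the 8 at FPKM 1 or more in all 4 libraries (median -0.07). The 5 became 3 with median-ratio scaling or without ES replicate 2, and 2 without EB replicate 1. Itgb1, the shared beta 1 chain, rose from 59.56 and 51.19 FPKM to 126.01 and 132.92 FPKM (log2 1.21 ± 0.12; adjusted p = 1.61e-06). The laminin-binding alpha 6 chain Itga6 fell from 33.7 and 30.71 to 15.33 and 15.93 FPKM (log2 -1.0 ± 0.10). The alpha 9 chain Itga9 fell from 5.2 and 5.17 to 1.87 and 1.5 FPKM (log2 -1.21 ± 0.13). The leukocyte chain Itgb7 fell from 9.13 and 9.94 to 1.37 and 1.05 FPKM (log2 -2.26 ± 0.12). In the group of glypicans, syndecans and heparan sulphate enzymes there were 12 of 19 genes higher and 3 lower (median log2 0.53), or 9 and 3 of the 16 at FPKM 1 or more in all 4 libraries (median 0.35). The 3 lower became 1 without ES replicate 2 or without EB replicate 2. Gpc3, a glypican that restrains growth, rose from 10.07 and 9.64 FPKM to 94.74 and 101.01 FPKM (log2 3.19 ± 0.28; adjusted p = 3.96e-07). The related Gpc6 rose from 0.12 and 0.08 to 3.26 and 4.15 FPKM (log2 2.09 ± 0.23). Sulf2, a sulphatase that trims heparan sulphate, fell from 60.88 and 63.71 to 47.18 and 47.56 FPKM (log2 -0.39 ± 0.11).

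**Figure D2:**
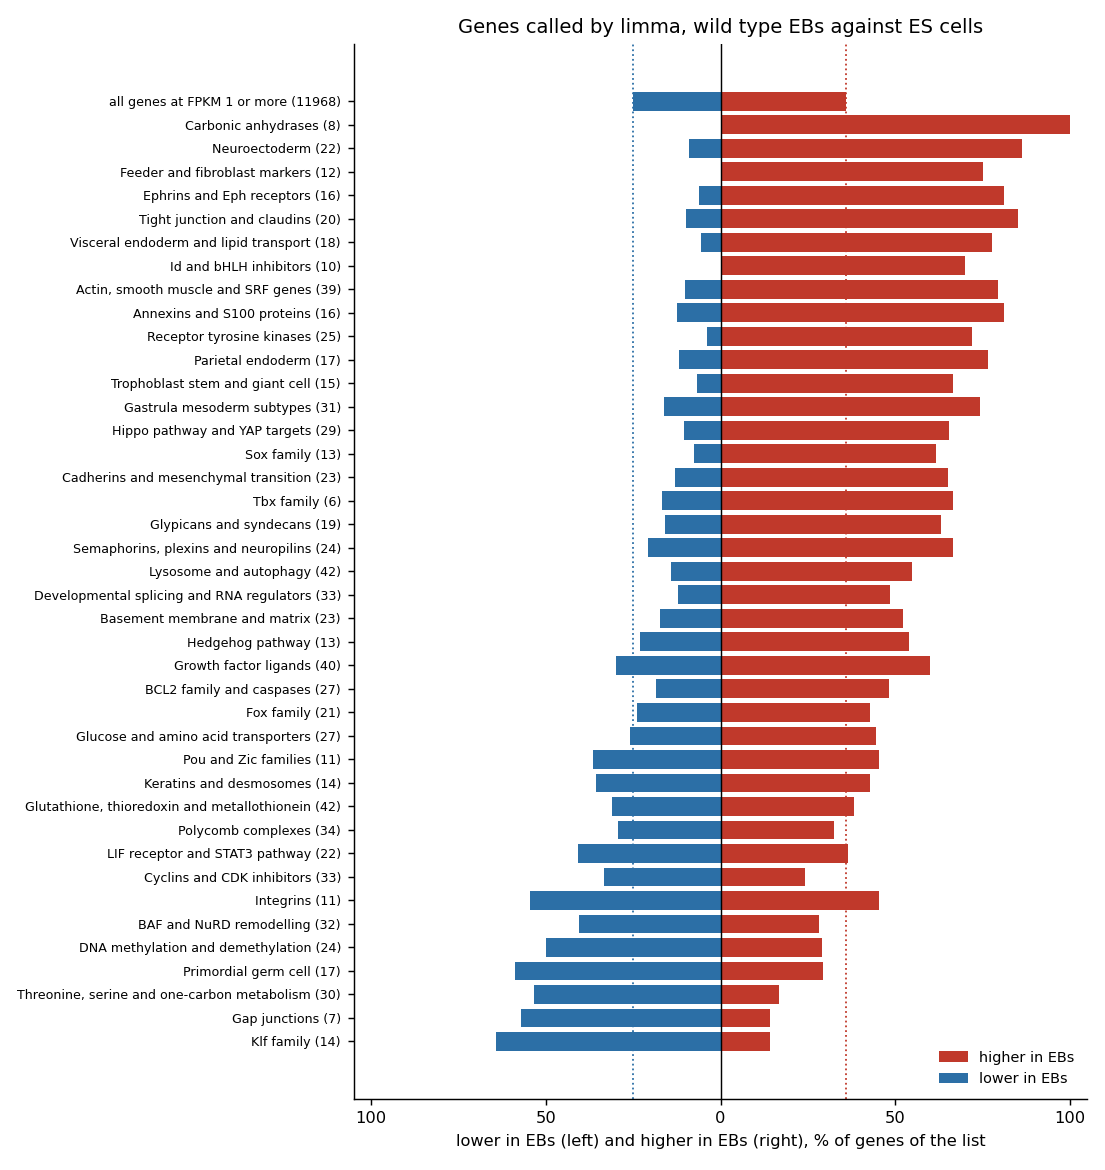
Share of the genes of each list that were higher (right, red) or lower (left, blue) in wild type EBs by limma, with the number of measured genes in parentheses and dotted lines at the shares over all 11968 genes. Carbonic anhydrase, neuroectoderm and tight junction genes lie furthest to the right, and KLF, gap junction and primordial germ cell genes have the largest blue shares.

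Actin, smooth muscle and serum response factor (SRF) genes rose in most cases. Of the 39 genes, 31 rose and 4 fell in EBs (median log2 1.20), and of the 33 at FPKM 1 or more in all 4 libraries 25 rose and 4 fell (median 1.02). The tropomyosin gene Tpm1 rose from 27.62 and 24.77 FPKM to 391.61 and 376.09 FPKM (log2 3.82 ± 0.23; adjusted p = 9.07e-09). Tagln (SM22), an actin-binding protein of smooth muscle, rose from 1.67 and 1.75 to 90.79 and 105.62 FPKM (log2 5.19 ± 0.30). The regulatory light chain gene Myl9 rose from 1.01 and 0.75 to 29.21 and 32.99 FPKM (log2 4.09 ± 0.24). Acta1, skeletal muscle actin, was 0.12 and 0.22 FPKM in ES cells and 12.88 and 11.74 FPKM in EBs, with a log2 of 3.51 ± 0.30. The most abundant gene, Actg1, cytoplasmic gamma actin, rose from 1166.79 and 1263.84 FPKM to 2065.09 and 1648.59 FPKM (log2 0.60 ± 0.13; adjusted p = 0.0013). Srf itself rose (log2 1.02), a value chosen after it was seen, and on the falling side stood Actn4 (alpha actinin) (log2 -0.89 ± 0.09), Csrp2 (log2 -0.76 ± 0.14), Tpm3 (log2 -0.40 ± 0.09) and Mkl1 (log2 -0.27 ± 0.11).

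The Hippo pathway restrains the coactivator YAP, which drives its targets through TEAD factors. Of the 29 genes, 19 rose and 3 fell in EBs (median log2 0.74), and of the 25 at FPKM 1 or more in all 4 libraries 15 rose and 3 fell (median 0.50). Yap1 was 45.55 and 45.63 FPKM in ES cells and 45.44 and 46.02 FPKM in EBs (log2 0.00 ± 0.08; adjusted p = 0.966). The secreted matricellular proteins encoded by Cyr61 and Ctgf are classical YAP targets. Cyr61 rose from 5.72 and 7.95 FPKM to 108.89 and 86.44 FPKM (log2 3.66 ± 0.27; adjusted p = 6.26e-08). Ctgf rose from 5.09 and 6.45 FPKM to 48.67 and 44.73 FPKM (log2 2.82 ± 0.16; adjusted p = 4.44e-09). The angiomotins, which bind YAP at junctions, rose too. Amot rose from 0.65 and 0.36 FPKM to 32.08 and 25.42 FPKM (log2 4.30 ± 0.24; adjusted p = 4.97e-09). Amotl2 rose from 9.37 and 9.44 to 47.95 and 39.49 FPKM (log2 2.10 ± 0.21). Of the TEAD genes, Tead2, the highest gene of the list, rose from 111.18 and 115.28 to 193 and 187.26 FPKM (log2 0.74 ± 0.08). Tead4 fell from 5.91 and 5.14 to 3 and 2.97 FPKM (log2 -0.71 ± 0.18). All 4 values of Yap1 lay within 45.44 and 46.02 FPKM. The groups did not overlap in the other genes named, as was so for 79.7% of all 11968 genes.

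The TEAD motif ACATTCC was searched on both strands from 250 bases before to 50 after the start site. It was in 7 of 25 promoters of this list (Yap1, Amotl2, Cyr61, Ajuba, Axl, Wwc2 and Vgll3) and in 3.85% of all 27025 promoters. It was in 3.66% of the promoters of genes that rose at least 2-fold and in 2.14% of those that fell at least 2-fold. Among genes not called the share was 2.44%, and among all 9643 measured genes with a promoter 2.37%. No test was made of these shares. Of the 7 genes, Yap1, Ajuba and Wwc2 did not pass the test. The promoters of Cyr61 and Amotl2, both among the largest increases of the list, are shown because they hold it close to the start. They come from RefSeq on GRCm38.p6 and end 1 base before the start, read 5′ to 3′. Cyr61 (Ccn1 in RefSeq) lies at chr3:145649986-145650110, minus strand, and Amotl2 at chr9:102717679-102717803, plus strand. Capitals mark the TEAD motif at -104 and a TATA box (TATAAA) at -25 in Cyr61, and the TEAD motif at -66 in Amotl2. A match is a description of these letters and not evidence of binding.
Cyr61: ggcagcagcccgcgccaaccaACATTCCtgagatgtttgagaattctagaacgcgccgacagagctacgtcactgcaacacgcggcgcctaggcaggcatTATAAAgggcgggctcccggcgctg
Amotl2: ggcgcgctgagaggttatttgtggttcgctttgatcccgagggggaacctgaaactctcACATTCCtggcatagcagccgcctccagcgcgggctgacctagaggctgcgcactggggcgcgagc

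Receptor tyrosine kinase genes had 18 of 25 genes higher and 1 lower (median log2 0.87), or 10 and 1 of the 14 at FPKM 1 or more in all 4 libraries (median 0.63). Ddr1, a collagen receptor, rose from 6.01 and 5.23 FPKM to 35.38 and 29.93 FPKM (log2 2.34 ± 0.15; adjusted p = 1.71e-08). Fgfr2 rose from 0.44 and 0.35 to 5.23 and 4.87 FPKM (log2 2.12 ± 0.28). Fgfr1, the main FGF receptor of ES cells, rose (log2 1.0), and Kit, the receptor of stem cell factor, fell from 17.77 and 18.4 to 12.19 and 9.06 FPKM (log2 -0.73 ± 0.14). Of 40 growth factor ligands 24 rose and 12 fell, and of the 21 at 1 FPKM or more in all 4 libraries 9 and 8. Fgf4, the FGF of naive ES cells, fell from 56.09 and 53.32 FPKM to 12.65 and 11.09 FPKM (log2 -2.12 ± 0.14; adjusted p = 2.98e-08). Fgf18 fell from 9.84 and 10.69 to 0.41 and 1.23 FPKM (log2 -2.67 ± 0.21). Gdf3, a ligand of the TGF-beta family, fell from 66.06 and 68.53 to 18.05 and 20.01 FPKM (log2 -1.77 ± 0.26). Fgf8, of the primitive streak, rose from 0.6 and 0.5 FPKM to 85.01 and 50.72 FPKM (log2 5.43 ± 0.39; adjusted p = 4.91e-08). The most abundant ligand, Mdk (midkine), rose from 228.1 and 275.13 to 447.48 and 435.57 FPKM (log2 0.81 ± 0.11).

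Guidance and adhesion signals also rose. Ephrins and Eph receptors had 13 of 16 genes higher and 1 lower (median log2 0.94), or 10 and 1 of the 13 at FPKM 1 or more in all 4 libraries (median 0.93). Efnb2, a transmembrane ephrin, rose from 1.83 and 1.29 FPKM to 22.61 and 27.2 FPKM (log2 3.34 ± 0.17; adjusted p = 1.77e-09). Epha2, the most abundant receptor in ES cells, fell from 71.33 and 73.55 FPKM to 15.81 and 16.2 FPKM (log2 -2.11 ± 0.16; adjusted p = 7.75e-08). Semaphorins, plexins and neuropilins had 16 of 24 genes higher and 5 lower (median log2 1.0), or 7 and 4 of the 14 at FPKM 1 or more in all 4 libraries (median 0.28). Sema6a rose from 0.35 and 0.09 FPKM to 13.6 and 13.37 FPKM (log2 3.58 ± 0.22; adjusted p = 1.15e-08). The coreceptor Nrp2 rose from 1.3 and 1.14 to 12.05 and 15.83 FPKM (log2 2.74 ± 0.20). Sema4a fell from 9.87 and 10.12 to 1.36 and 1.04 FPKM (log2 -2.33 ± 0.10). Sema5b fell from 7.74 and 8.3 to 1.15 and 1.09 FPKM (log2 -2.09 ± 0.18). In the Hedgehog pathway the ligand Shh was not among the 11968 genes, and of 13 others 7 rose and 3 fell, or 3 and 3 of the 9 at FPKM 1 or more in all 4 libraries. Gli1, a response gene of the pathway, fell from 31.37 and 35.32 FPKM to 5.73 and 7.51 FPKM (log2 -2.18 ± 0.23; adjusted p = 1.9e-06). Gli2, the main activator, fell from 39.36 and 39.74 to 10.41 and 11.48 FPKM (log2 -1.76 ± 0.08). Gli3, mostly a repressor, rose from 1.76 and 1.35 to 6.51 and 7.54 FPKM (log2 1.65 ± 0.15). The coreceptor Gas1 rose from 0.97 and 1.32 to 14.07 and 17.88 FPKM (log2 2.98 ± 0.20). Ptch1, a Hedgehog receptor, was 13.34 and 11.96 FPKM in ES cells and 11.18 and 8.03 FPKM in EBs (log2 -0.38 ± 0.22; adjusted p = 0.145).

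In the lists of early cell types more genes rose than fell, but many started below 1 FPKM, where the rule itself favours a rise. Of all genes that met the rule through EBs alone, 97.4% were higher. Of 22 neuroectoderm genes 19 rose and 2 fell (median log2 1.77), and of the 8 at 1 FPKM or more throughout 6 and 1 (median 2.06). Otx2, of epiblast and forebrain, rose from 7.41 and 8.9 FPKM to 90.26 and 91.34 FPKM (log2 3.33 ± 0.26; adjusted p = 1.02e-07). En1, of midbrain, rose from 0.38 and 0.25 to 14.29 and 23.02 FPKM (log2 3.87 ± 0.26). Gbx2, a naive state and hindbrain factor, fell from 86.23 and 96.15 FPKM to 9.86 and 12.83 FPKM (log2 -2.91 ± 0.36; adjusted p = 8.99e-06). The foetal fatty acid binding protein gene Fabp7 was listed at 0 in both ES libraries and at 5.18 and 7.12 FPKM in EBs. Of 31 genes of gastrula mesoderm 23 rose and 5 fell (median log2 1.64). Only 6 were at 1 FPKM or more throughout, and of these 1 rose and 3 fell (median -0.61), the opposite direction. Lhx1, of nascent mesoderm, rose from 0.02 and 0 to 15.32 and 8.51 FPKM (log2 3.62 ± 0.39). Cdx1 fell from 4.5 and 4.16 to 0.43 and 0.41 FPKM (log2 -1.91 ± 0.11).

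Extraembryonic endoderm makes the visceral and parietal layers of the yolk sac. Visceral endoderm genes had 14 of 18 genes higher and 1 lower (median log2 1.08), or 4 and 0 of the 7 at FPKM 1 or more in all 4 libraries (median 0.65). Lrp2 (megalin), an endocytic receptor, rose from 0.97 and 0.75 FPKM to 16.38 and 16.8 FPKM (log2 3.24 ± 0.21; adjusted p = 1.8e-08). Apoe rose from 203.55 and 218.27 to 514.7 and 377.08 FPKM (log2 1.06 ± 0.18). Trf (transferrin) fell from 4.6 and 5.47 to 0.55 and 0.43 FPKM (log2 -2.02 ± 0.15). Cer1, an inhibitor of Nodal in anterior endoderm, was listed at 0 in both ES libraries and at 6.6 and 3.57 FPKM in EBs. Of the 33 genes of the list in the table, 15 did not meet the rule, among them Hnf4a, Amn, Apoa1, Apob, Ttr and Afp. Afp was at 0.03 FPKM or less in all 4 libraries, and Ttr at 0.95 and 0.24 FPKM in EBs. Parietal endoderm genes had 13 of 17 genes higher and 2 lower (median log2 1.73), or 7 and 2 of the 11 at FPKM 1 or more in all 4 libraries (median 0.89). Podxl (podocalyxin), an apical sialomucin, rose from 2.53 and 2.16 FPKM to 53.89 and 40.48 FPKM (log2 3.84 ± 0.14; adjusted p = 1.48e-10). Fst (follistatin), an activin inhibitor, rose from 0.45 and 0.58 to 24.89 and 26.24 FPKM (log2 4.13 ± 0.45).

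Primordial germ cell genes fell more often than they rose. Of the 17 genes, 5 rose and 10 fell in EBs (median log2 -0.57), and of the 15 at FPKM 1 or more in all 4 libraries 3 rose and 10 fell (median -0.62). Prdm14, a regulator of the germ line and of naive cells, fell from 11.27 and 12.01 FPKM to 3.18 and 2.68 FPKM (log2 -1.69 ± 0.12; adjusted p = 3.6e-08). Dppa4 fell from 62.34 and 64.55 to 22.4 and 25.76 FPKM (log2 -1.36 ± 0.18). The most abundant of them, Dppa5a, fell from 956.91 and 1023.97 FPKM to 489.76 and 447.24 FPKM (log2 -1.08 ± 0.26; adjusted p = 0.00285). Dppa3 (Stella) rose from 1.86 and 0.73 to 26.44 and 18.56 FPKM (log2 3.38 ± 0.22). Sycp3, of the synaptonemal complex, rose from 6.11 and 4.49 to 21.74 and 24.52 FPKM (log2 1.95 ± 0.21). Of 15 trophoblast genes 10 rose and 1 fell, or 3 and 1 of the 8 at 1 FPKM or more throughout. Those highest in EBs, Krt8 and Krt18, are shared with other simple epithelia, Elf5 was at 0.08 FPKM or less and Tpbpa at 0 in all 4 libraries, and the summed level of the list was 77.96 and 64.56 FPKM in ES cells and 506 and 459.2 in EBs. Peg10, an imprinted gene of the placenta, rose from 28.12 and 20.51 to 116.74 and 119.13 FPKM (log2 2.25 ± 0.39).

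Genes that could mark fibroblasts or feeders had 9 of 12 genes higher and 0 lower (median log2 1.31), or 3 and 0 of the 6 at FPKM 1 or more in all 4 libraries (median 0.32). Col1a1 rose from 0.3 and 0.31 FPKM to 9.3 and 10.13 FPKM (log2 3.04 ± 0.19; adjusted p = 1.27e-08). Mmp2, a gelatinase, rose from 4.02 and 4.35 to 22.48 and 22.8 FPKM (log2 2.19 ± 0.14). Thy1 was 9.37 and 8.61 FPKM in ES cells and 5.87 and 5.34 FPKM in EBs (log2 -0.60 ± 0.33; adjusted p = 0.135). Of 18 macrophage and blood genes, 4 met the rule. Hba-a1, an adult alpha globin, was 0 and 0.39 FPKM in ES cells and 2.92 and 12.74 FPKM in EBs, and Laptm5, a lysosomal protein, fell from 27.5 and 30.06 to 2.02 and 1.45 FPKM (log2 -3.45 ± 0.20). The part of such cells in the increases named above was not tested.

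Genes of threonine, serine and folate metabolism fell more often than they rose. Of the 30 genes, 5 rose and 16 fell in EBs (median log2 -0.31), and of the 28 at FPKM 1 or more in all 4 libraries 3 rose and 16 fell (median -0.34). Mouse ES cells are known to depend on threonine, which Tdh (threonine dehydrogenase) breaks down to feed the folate cycle. Tdh fell from 387.78 and 475.63 FPKM to 72.56 and 78.77 FPKM (log2 -2.49 ± 0.26; adjusted p = 2.06e-06). The mitochondrial serine hydroxymethyltransferase Shmt2 fell from 144.12 and 148.26 FPKM to 64.87 and 50.62 FPKM (log2 -1.34 ± 0.12; adjusted p = 5.04e-07). Mthfd2 fell from 51.62 and 51.23 to 23.32 and 19.57 FPKM (log2 -1.23 ± 0.11). Psat1, of serine synthesis, fell from 171.21 and 171.99 to 71.9 and 78.95 FPKM (log2 -1.18 ± 0.10). Gldc, of the glycine cleavage system, rose from 24.61 and 21.45 to 44.7 and 37.46 FPKM (log2 0.81 ± 0.11). Mthfd2l rose from 0.65 and 0.59 to 2.98 and 4.1 FPKM (log2 1.48 ± 0.11). Amino acid transporters moved both ways. The cationic transporter Slc7a1 fell from 26.25 and 24.64 FPKM to 4.77 and 5.65 FPKM (log2 -2.09 ± 0.12; adjusted p = 5.92e-09). Slc7a5 fell from 100.51 and 101.94 to 46.92 and 36.27 FPKM (log2 -1.27 ± 0.13), while Slc7a8 rose by log2 1.18 ± 0.28. The lactate exporter Slc16a3 rose from 24.69 and 23.75 FPKM to 150.83 and 87.21 FPKM (log2 2.20 ± 0.24; adjusted p = 2.95e-06). Slc2a1, a glucose transporter, rose from 244.48 and 232.28 to 604.19 and 349.67 FPKM (log2 0.94 ± 0.29). Over the 27 transporters 12 rose and 7 fell, 9 and 8 with median-ratio scaling, and 9 and 7 of the 24 at FPKM 1 or more in all 4 libraries.

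Carbonic anhydrases interconvert carbon dioxide and bicarbonate. All 8 that met the rule rose, 6 of 8 with median-ratio scaling, and 7 others in the table did not meet it. Of the 8, 5 were at FPKM 1 or more in all 4 libraries, and all 5 rose, against 31.5% of all genes at that level. Car4, a membrane-anchored form, rose from 1.53 and 1.63 FPKM to 154.17 and 156.53 FPKM (log2 5.92 ± 0.24; adjusted p = 2.6e-10). Car14 rose from 1.09 and 0.94 to 29.21 and 33.72 FPKM (log2 4.01 ± 0.20). The cytosolic Car2 rose from 58.72 and 60.84 to 207.88 and 249.84 FPKM (log2 1.91 ± 0.27). Car2 was the most abundant in ES cells and in EBs. The calcium-binding annexins and S100 proteins had 13 of 16 genes higher and 2 lower (median log2 1.29), or 11 and 1 of the 13 at FPKM 1 or more in all 4 libraries (median 1.39). Anxa2 rose from 5.09 and 4.87 FPKM to 77.77 and 42.21 FPKM (log2 3.29 ± 0.43; adjusted p = 1.81e-05). Anxa5 rose from 4.92 and 5.05 to 24.56 and 31.47 FPKM (log2 2.27 ± 0.20). S100a6 rose from 4.99 and 5.34 to 36.45 and 33.92 FPKM (log2 2.55 ± 0.23). Anxa11 fell from 79.79 and 91.53 to 54 and 47.29 FPKM (log2 -0.75 ± 0.20).

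Lysosome and autophagy genes had 23 of 42 genes higher and 6 lower (median log2 0.45), or 21 and 5 of the 39 at FPKM 1 or more in all 4 libraries (median 0.44). Cd63, a lysosomal tetraspanin, rose from 33.46 and 33.86 FPKM to 143.63 and 134.88 FPKM (log2 2.02 ± 0.16; adjusted p = 1.62e-07). Lamp2 rose from 8.51 and 8.69 to 32.22 and 35.04 FPKM (log2 1.85 ± 0.17). Lamp1, the most abundant gene of the group with Gabarapl2, was 193.13 and 201.59 FPKM in ES cells and 195.83 and 180.51 FPKM in EBs (log2 -0.07 ± 0.09; adjusted p = 0.523). Tfeb, a transcription factor of lysosome genes, fell from 20.74 and 23.92 FPKM to 1.84 and 1.9 FPKM (log2 -3.02 ± 0.13; adjusted p = 6.17e-10). Gabarapl2, an ATG8 family member, fell from 216.94 and 232.66 FPKM to 65.86 and 67.86 FPKM (log2 -1.73 ± 0.09; adjusted p = 1.82e-09). Glutathione, thioredoxin and metallothionein genes had 16 of 42 genes higher and 13 lower (median log2 0.13), or 15 and 13 of the 40 at FPKM 1 or more in all 4 libraries (median 0.02). Over all 11968 genes the shares were 35.9% higher and 25% lower, so these counts lie near them. Gpx8 rose from 2.74 and 2.34 to 13.43 and 15.7 FPKM (log2 2.13 ± 0.17). Gstm5 rose from 8.24 and 9.58 to 40.49 and 54.27 FPKM (log2 2.28 ± 0.15). Srxn1 (sulphiredoxin) fell from 15.42 and 15.89 to 2.75 and 3.49 FPKM (log2 -2.02 ± 0.18). Nqo1, an NRF2 target, fell from 23.54 and 19.65 to 4.13 and 4.94 FPKM (log2 -2.03 ± 0.15). Gstm1, Gstm2, Gstm3 and Gstm6 are near-identical neighbours, so their values are uncertain.

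Of the apoptosis genes, Casp6, Casp8 and Casp9, of the caspase family, rose. The BCL2 family moved both ways: Bcl2l11 rose, while Bax, Bak1, Bid and Mcl1 fell. Of the 27 genes, 13 rose and 5 fell in EBs (median log2 0.27), all of them at FPKM 1 or more in all 4 libraries. Casp6 rose from 3.38 and 3.73 to 13.61 and 12.83 FPKM (log2 1.64 ± 0.15). Bcl2l11 (Bim) rose from 5.2 and 4.47 to 14.97 and 13.78 FPKM (log2 1.40 ± 0.10). Bax fell from 164.25 and 188.11 to 118.03 and 129.42 FPKM (log2 -0.50 ± 0.12). Mcl1 fell from 131.75 and 128.2 to 82.99 and 74.42 FPKM (log2 -0.72 ± 0.11). Cyclins, cyclin-dependent kinases and their regulators had 8 of 33 genes higher and 11 lower (median log2 0.05). Of the G1 cyclins Ccnd1 (log2 -0.92), Ccnd3 and Ccne1 fell, and Ccnd2 and Ccne2 did not pass the test (log2 0.07 and 0.10). Ccnd3 fell from 253.1 and 275.57 FPKM to 94.7 and 88.13 FPKM (log2 -1.52 ± 0.15; adjusted p = 1.45e-06). Ccne1 fell from 133.38 and 142.53 FPKM to 45.96 and 49.38 FPKM (log2 -1.51 ± 0.14; adjusted p = 7.46e-07). E2f2 fell from 9.75 and 8.92 to 1.47 and 1.63 FPKM (log2 -2.02 ± 0.14). E2f8 fell from 28.36 and 27.16 to 9.73 and 9.71 FPKM (log2 -1.42 ± 0.14). Ccng2, which slows the cycle, rose from 2.69 and 2.48 to 17.03 and 8.14 FPKM (log2 1.84 ± 0.39). Cdk4, the most abundant gene of the group, was 422.9 and 442.31 FPKM in ES cells and 441.82 and 490.49 FPKM in EBs (log2 0.11 ± 0.11; adjusted p = 0.432). Regulators of splicing and RNA had 16 of 33 genes higher and 4 lower (median log2 0.23), or 11 and 4 of the 27 at FPKM 1 or more in all 4 libraries (median 0.02), and with median-ratio scaling 8 were lower. Igf2bp2 rose from 15.41 and 11.7 to 53.34 and 48.95 FPKM (log2 1.85 ± 0.15). Ptbp2 rose from 10.83 and 8.45 to 33.29 and 43.18 FPKM (log2 1.88 ± 0.13).

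The X chromosome stood apart from the autosomes, an observation made after the values were seen. Of 416 X-linked genes 227 (54.6%) were higher and 51 (12.3%) lower in EBs, against 35.2% and 25.5% of 11531 autosomal genes. At least 2-fold, 22.8% were higher on X and 11.6% on the autosomes, and the median log2 fold change was 0.391 on X against 0.0792. The difference was present in each line: the median from ES cells to EBs was 0.337 in replicate 1 and 0.46 in replicate 2, against 0.0577 and 0.095 on the autosomes. Among genes with a mean of 10 FPKM or more over the 4 libraries, 17.9% of 184 on X and 6.01% of 6005 on the autosomes rose at least 2-fold. No test was made of this difference, since neighbouring genes are not independent.

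Of the 95 X-linked genes that rose at least 2-fold, 81 did so within each line, as did 1098 of 1332 on the autosomes. Pim2, a serine/threonine kinase, rose from 10.57 and 7.02 FPKM to 278.21 and 241.08 FPKM (log2 4.75 ± 0.23; adjusted p = 1.56e-09). Pls3, an actin-bundling plastin, rose from 3.57 and 2.37 FPKM to 47.6 and 53.16 FPKM (log2 3.71 ± 0.12; adjusted p = 6.13e-11). Hmgb3, a chromatin protein of progenitors, rose from 17.15 and 15.29 to 78.91 and 95.38 FPKM (log2 2.35 ± 0.10). Rhox5, a homeobox gene of the placenta and testis, rose from 3.22 and 2.25 to 17.03 and 20.35 FPKM (log2 2.41 ± 0.28). Cxx1a, Cxx1b and Cxx1c, retrotransposon-derived neighbours of like sequence, rose by log2 2.41, 2.40 and 3.73, and their reads may have been split between the copies. Of the 11 X-linked genes that fell at least 2-fold, Nr0b1 (Dax1), a nuclear receptor of naive cells, fell from 40.87 and 39.4 FPKM to 4.75 and 5.46 FPKM (log2 -2.75 ± 0.14; adjusted p = 1.7e-09). Dusp9, a phosphatase of ERK, fell from 97.12 and 109.61 to 26.56 and 21.89 FPKM (log2 -2.05 ± 0.20), and Eras fell by 1.33 on the log2 scale. Xist and Tsix were not analysed here. The Y-linked Eif2s3y, which differed between the wild type lines in ES cells, was at 23.94 FPKM in replicate 1 and 1.25 in replicate 2 of EBs, and the part of this line difference in the X-linked values was not tested.

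**Figure D3:**
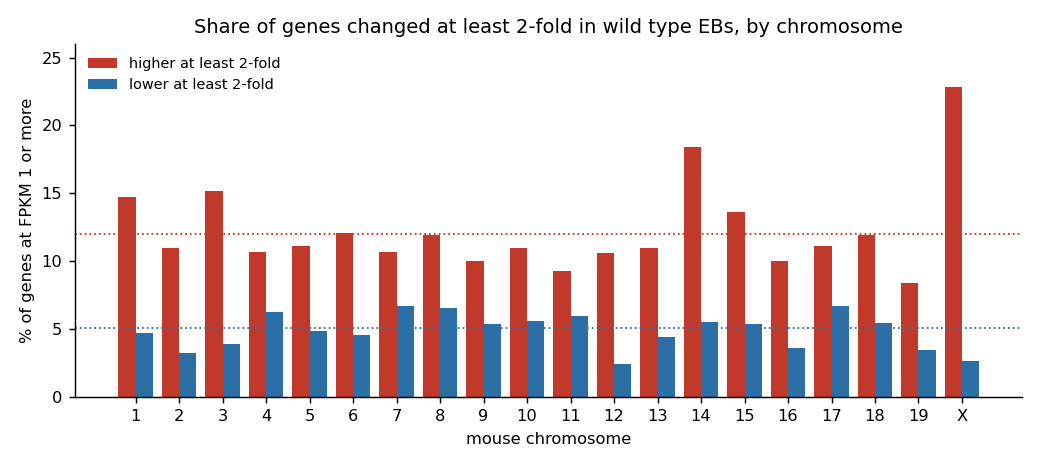
Share of the measured genes of each mouse chromosome that were higher (red) or lower (blue) by at least 2-fold in wild type EBs by limma, with dotted lines at the shares over all 11968 genes. The X chromosome has the largest share of increases, 22.8%, followed by chromosome 14 with 18.4%.

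Chromosome 14, with 80 of 434 genes higher at least 2-fold, held 2 runs of 8 adjacent genes of that class, most of them predicted genes of near-identical sequence whose values are uncertain. Among the other runs of 4 or more measured neighbours that rose at least 2-fold were Tap1, Psmb8, Tap2 and H2-Ab1 on chromosome 17, of antigen presentation, and Gbp7, Gbp3, Gbp2b and Gbp2 on chromosome 3, interferon-induced GTPases. Among falling genes the longest run was Gsta4, Dppa5a, Ooep, Ddx43 and Mb21d1 on chromosome 9. These runs were picked after the values were seen, and copies within them can share reads.

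Promoters were matched for 9643 of the 11968 genes. In the 250 bases before the start, the ratio of observed to expected CpG had a median of 0.629 in 1093 genes higher at least 2-fold. The median was 0.624 in 468 genes lower at least 2-fold and 0.763 in 3806 genes not called. A ratio under 0.5 was found in 35.2%, 34.2% and 18.3% of these classes. Their GC content over the same bases was alike, at medians of 61.2%, 60.8% and 60%. The letters TATAAA, with the initial T from -40 to -20 of the start, were in 27 promoters (2.47%) of the rising class and 11 (2.35%) of the falling class, against 28 (0.736%) of the genes not called, 1.11% of all 9643 and 2.22% of all 27025 promoters. No test was made of these shares.

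**Figure D4:**
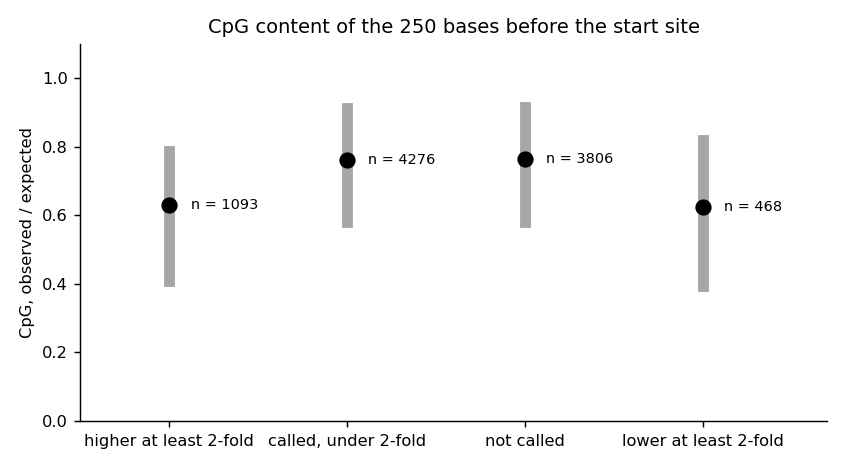
Ratio of observed to expected CpG in the promoter for 4 classes of genes, with the median as a point and the middle 50% of genes as a bar. Genes that rose or fell at least 2-fold lie lower, at medians of 0.629 and 0.624, than genes called under 2-fold (0.76) or not called (0.763).

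Promoters with a TATA box are shown for a pair of genes of each direction, from RefSeq on GRCm38.p6, as the 60 bases before the start with TATAAA in capitals. Cxcr4, a chemokine receptor, rose from 0.69 and 0.76 to 15.15 and 13.66 FPKM (log2 3.16 ± 0.22), and Hba-x, the embryonic alpha globin, was listed at 0 in both ES libraries and at 2.3 and 13.59 FPKM in EBs. Tfcp2l1, a naive pluripotency factor, fell from 59.13 and 55.1 to 5.97 and 6.63 FPKM (log2 -2.99 ± 0.11), and Nr0b1 is described above. The motif starts at -30 in Cxcr4, at -28 in Hba-x and Tfcp2l1 and at -32 in Nr0b1. The coordinates are chr1:128592300-128592359, minus strand (Cxcr4), chr11:32276540-32276599, plus strand (Hba-x), chr1:118627885-118627944, plus strand (Tfcp2l1) and chrX:86191715-86191774, plus strand (Nr0b1).
Cxcr4: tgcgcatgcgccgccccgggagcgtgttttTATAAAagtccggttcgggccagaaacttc
Hba-x: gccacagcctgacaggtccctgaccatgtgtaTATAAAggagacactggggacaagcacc
Tfcp2l1: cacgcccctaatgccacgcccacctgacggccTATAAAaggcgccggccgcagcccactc
Nr0b1: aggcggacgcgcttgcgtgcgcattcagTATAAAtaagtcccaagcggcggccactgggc

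The octamer ATTTGCAT, which POU factors such as Oct4 can bind, was in 2.47% of the promoters of genes higher at least 2-fold and in 2.56% of those lower at least 2-fold, against 1.26% of genes not called and 1.75% of all promoters, on both strands. Zfp42 and Pim2 are shown because they hold it and moved in opposite directions. Zfp42 fell from 505.3 and 489.66 to 74.45 and 82.2 FPKM (log2 -2.65 ± 0.22). The sequences cover the 210 bases before the start, at chr8:43307010-43307219, minus strand for Zfp42 and chrX:7878096-7878305, plus strand for Pim2, and capitals mark the octamer at -186 in Zfp42, and in Pim2 at -202 and, as its reverse complement, at -123.
Zfp42: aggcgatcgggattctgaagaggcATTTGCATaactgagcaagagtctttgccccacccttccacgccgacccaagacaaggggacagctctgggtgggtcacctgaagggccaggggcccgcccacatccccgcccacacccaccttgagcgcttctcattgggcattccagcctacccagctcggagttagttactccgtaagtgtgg
Pim2: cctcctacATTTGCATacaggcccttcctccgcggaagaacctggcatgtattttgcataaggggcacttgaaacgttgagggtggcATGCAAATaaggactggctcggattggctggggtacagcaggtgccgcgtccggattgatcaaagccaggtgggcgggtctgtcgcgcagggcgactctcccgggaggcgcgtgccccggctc

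The EB libraries of both lines were close for most genes. Between them the median absolute log2 difference was 0.143, against 0.109 between the ES libraries, and 33 genes were at least 2-fold higher in replicate 1 and 16 in replicate 2. These genes were named after their values were seen, and no test was made with a single library on each side. Among the genes higher in replicate 1 were Ndrg1 at 30.68 against 5.88 FPKM, Adm (adrenomedullin) at 9.98 against 1.32 and Egln3 (a prolyl hydroxylase of HIF) at 24.97 against 7.95. Mesp1, of early mesoderm, was 12.17 against 3.61 FPKM. In replicate 2 the embryonic globins Hbb-bh1 (27.32 against 5.66 FPKM) and Hba-x (13.59 against 2.3) and the midbrain ligand Wnt1 (7.36 against 1.78) were higher, as was Crabp1, a retinoic acid binding protein, at 157.56 against 67.13. The glucose transporter Slc2a3, at 611.84 and 312.43 FPKM in EBs, and Slc2a1 and Slc16a3, given above, were also higher in replicate 1. A spread of this size also lay between knockout EBs, where Ndrg1 was 6.99, 48.4 and 12.87 FPKM.

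**Figure D5:**
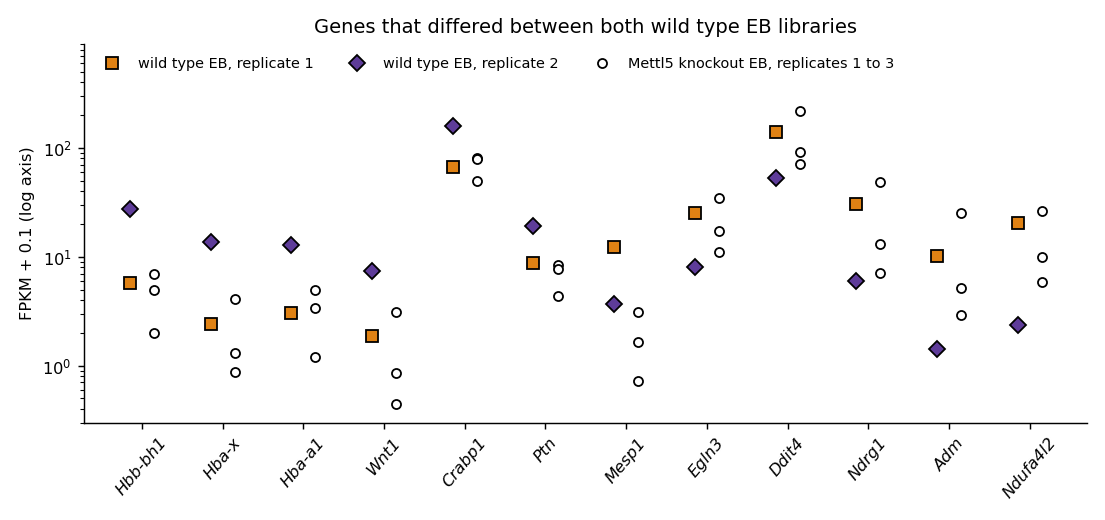
FPKM + 0.1 (log axis) of genes that differed between the wild type EB libraries, with replicate 1 as orange squares, replicate 2 as purple diamonds and the 3 knockout EB libraries as open circles. Ndrg1, Adm and Ndufa4l2 are higher in replicate 1 and the globins in replicate 2, and the knockout libraries spread as widely for Ndrg1 and Adm.

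The change from ES cells to EBs was set beside that of the 3 knockout lines, which share no library with it. There 1209 of the 11968 genes (10.1%) rose at least 2-fold and 559 (4.67%) fell. Of the 1431 genes that rose at least 2-fold in wild type, 1083 did so in the knockout, which is 75.7% of the wild type and 89.6% of the knockout increases. Of the 603 that fell, 485 did so, or 80.4% and 86.8%. None of these genes was called in the opposite direction, and 1409 and 599 were called in the same direction. In each knockout line the X-linked median exceeded the autosomal one, at 0.344, 0.319 and 0.367 against 0.0441, 0.00869 and 0.0436, and 94 of the 95 X-linked increases were called in the knockout. By list, knockout EBs had 32 higher and 4 lower of the actin and SRF genes and 18 higher and 2 lower of the tight junction genes, where 36.2% of all genes were higher and 30.2% lower. Other lists were less alike. The 31 mesoderm genes had 19 higher and 7 lower in the knockout (median log2 0.67), against 23 and 5 in wild type (median 1.64). In 6 of the 31 the change differed between genotypes, by the test given below, against 0.167% of all genes. The Hedgehog list had 4 higher and 3 lower, against 7 and 3.

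The change itself differed between genotypes, by the interaction term of the same fit, in 20 of 11968 genes (0.167%), and in 7 with the line as a block. Hand1, a regulator of lateral and extraembryonic mesoderm, had the smallest adjusted p: it was 0.27 and 0.17 FPKM in ES cells and 15.93 and 16.46 FPKM in EBs of the wild type, and 0.18, 0.24 and 0.2 FPKM in ES cells and 2.09, 3.44 and 2.04 in EBs of the knockout lines (difference of changes log2 2.29 ± 0.21; adjusted p = 0.000306). Nrp1, a coreceptor of VEGF and semaphorins, was 3.78 and 3.06 FPKM in wild type EBs and 0.76, 0.78 and 0.25 in knockout EBs (1.46 ± 0.21; adjusted p = 0.0155). The count was 1 to 6 when a wild type library was left out.

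Compared directly with wild type N2B27 cultures of the same day, EBs were higher in 3167 genes (26.5%) and lower in 3488 (29.1%), and TPM scaling gave 2302 and 4717. This comparison shares its EB libraries with that against ES cells, so the values are given side by side. Genes were taken by their level in ES cells and EBs only. Genes high in N2B27 alone are therefore left out, which favours counts above the N2B27 level. Of the 31 mesoderm genes 6 were at 1 FPKM or more in all 4 ES and EB libraries, and of the 17 germ cell genes 15. The mesoderm list had 24 above and 2 below the N2B27 level, and the germ cell list 17 above and 0 below. The neuroectoderm list had 3 above and 14 below, the Hippo list 2 above and 17 below, and the glypican list 2 above and 15 below. Car4 was 154.17 and 156.53 FPKM in EBs and 4.61 and 4.17 in N2B27 (log2 4.86 ± 0.24; adjusted p = 4.09e-09), and Pim2 was 278.21 and 241.08 and 41.12 and 53.92 (log2 2.43 ± 0.23; adjusted p = 1.21e-06). Tpm1 was 391.61 and 376.09 FPKM in EBs and 352.39 and 577.99 in N2B27 (log2 -0.23 ± 0.23; adjusted p = 0.403), and Socs3 12.02 and 8.47 and 7.99 and 6.22 (log2 0.46 ± 0.25; adjusted p = 0.132). Cdh2 was 20.68 and 24.78 FPKM in EBs and 83.09 and 80.04 in N2B27 (log2 -1.80 ± 0.19; adjusted p = 2.47e-06).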

How the data were processed

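RNA was extracted with Trizol, selected on oligo(dT) beads, fragmented and primed with random hexamers, per the labels' protocols. The authors deposited 1 table of FPKM values per gene for 15 libraries; mm10, Bowtie2 and RSEM are named in the submitters' processing notes, with no role or version. No source used here gives the depth, so no interval for counting error could be set.

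Values were tested as log2(FPKM + 1) with limma 3.58.1 (R 4.3.3), with a mean-variance trend, 6 group means over all 15 libraries and Benjamini-Hochberg adjustment over the 12929 genes at 1 FPKM or more in at least 2 of the 15 libraries. A gene was called at an adjusted p under 0.05. A fold change on this scale understates the change of low genes. With 2 libraries against 2 an exact permutation test cannot go below 0.333, so none is given for single genes. The wild type lines give the pairing: the same line was sampled in each culture, so the line was a block in an alternative fit. Differences between lines correlated by -0.015 between ES cells and EBs. The code was tested on simulated data.

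Named genes were the up to 25 per direction with the largest called changes, the up to 4 per direction and the most abundant gene in each list, every member of the transcription factor families and of the LIF list, the 20 most abundant genes per group, and Mettl5. Members and lists were chosen with earlier results of these data known. Outside that rule, Cdh1, Cer1, Cxcr4, Dnmt3a, Dnmt3l, Dusp9, Ezh2, Fabp7, Hba-x, Hmgb3, Lamb1, Ndrg1, Nr0b1, Nrp1, Pls3, Ptch1, Rhox5, Rnf2, Slc2a1, Smarca4, Tet3, Thy1 and Yap1, and the genes given by log2 value alone, were picked after their values were seen. Promoters came from RefSeq (GRCm38.p6). Alternatives changed the pseudocount, filter, scaling, block, trend and libraries. Results for some genes are not reported here.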

Additional observations from a re-analysis of the deposited data

Results flagged for a closer look

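In 20 genes the change from ES cells to EBs differed between wild type and knockout lines by the interaction term in limma, at an adjusted p under 0.05. Each value is the wild type change minus the knockout change on the log2(FPKM + 1) scale. Among regulators of mesoderm the difference was 2.29 for Hand1, 1.34 for Hand2, 1.40 for Foxf1 and 0.77 for Tbx20. Among genes of blood vessels and their signals it was 1.34 for Kdr, a VEGF receptor, 0.99 for Cdh5 (VE-cadherin), 1.46 for Nrp1 and 1.17 for Rgs5. The secreted ligands Bmp2 and Wnt5a stood at 1.08 and 1.33. Further differences were 1.16 for Greb1, 1.43 for Asb4, 1.41 for Prdm6, 1.06 for Stard8, 1.57 for Vstm2b, 1.18 for Psca, 0.87 for Klhl6 and 1.32 for Zfpm1. The differences of Syce1, of the synaptonemal complex, and Ccno, a cyclin family gene, had the other sign, at -0.89 and -1.49. Syce1 was 3.59 and 3.66 FPKM in wild type EBs and 6.56, 6.28 and 8.21 in knockout EBs. Foxf1, Prdm6, Psca and Klhl6 were listed at 0 in both wild type ES libraries. All others but Syce1, Ccno and Zfpm1 were below 1 FPKM in both, such as Hand2 at 0.08 and 0.05 FPKM. Differences of genes so low depend on the added pseudocount, and with a pseudocount of 0.1 the count of 20 was 1. The number of genes called this way changed with the pseudocount, the block and the libraries used.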

How the results depend on the processing

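The counts of genes higher and lower in EBs stayed within 1.5 times of 4295 and 2994 in every alternative run. Leaving out a wild type library gave 3573 to 3896 higher and 2504 to 2621 lower, and 1387 to 1515 higher and 613 to 640 lower at least 2-fold. With a pseudocount of 5 the counts at least 2-fold fell to 514 and 305, and X-linked increases at least 2-fold to 39, since a larger pseudocount shrinks the fold of low genes by construction. With the line as a replicate block, 4279 genes were higher and 2967 lower, and the pairing changed no other count by over 1.5 times except that of differences between genotypes. That count of 20 was 1 with a pseudocount of 0.1, 41 with a pseudocount of 5, 7 with the replicate block and 1 to 6 when a wild type library was left out; the cause was not tested. Leaving out 1 library also moved small counts in lists: falling neuroectoderm genes went from 2 to 1 without ES replicate 1, falling visceral endoderm genes from 1 to 2 without ES replicate 2, and falling trophoblast genes from 1 to 2 without EB replicate 1. Of 417 named genes, 373 kept their direction and side of the threshold in every alternative and 0 reversed. No source used here gives the depth of the libraries, so its limits cannot be stated.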
